A study of Mus musculus with 4 samples.

Results

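A set of 10 genes that define the T cell lineage in the thymus were followed in RNA sequencing libraries of medullary thymic epithelial cells (mTECs) that had been sorted to be free of blood cells. They were *Cd3d*, *Cd3e*, *Cd3g*, *Cd4*, *Cd8a*, *Cd8b1*, *Ptcra*, *Rag1*, *Rag2* and *Lck*. They were chosen by symbol, as a gauge of thymocyte RNA in the sort, and were 10 of the 23337 genes in the matrix. All 10 passed the filter on low counts, which left 18547 genes to be tested. Both groups were C57BL/6 mice at 4 weeks of age, and the cells were sorted from the thymus as CD45-EPCAM+UEA-1+Ly51-. The WT mice lacked *Foxn1*-Cre and were littermates or age-matched, and the *Sirt6* cKO mice carried *Foxn1*-Cre and *Sirt6* loxp/loxp, a genotype that the sample labels shorten to Sirt6-/-. *Foxn1*-Cre acts in thymic epithelial cells, so thymocytes in a *Sirt6* cKO thymus were not the cells targeted. Each group had 2 libraries, said to be independent samples. Whether animals were pooled is not given in the sources used here, and the spread between the libraries of a group may in part be technical.

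T cell precursors enter the thymus, recombine their receptor genes with the RAG1 and RAG2 recombinase, and pair the new receptor β chain with pre-Tα, the product of *Ptcra*. They then carry both the CD4 and CD8 coreceptors before they settle on one of them and move into the medulla. The γ, δ and ε chains of CD3 assemble with the receptor and take part in its signalling after the kinase LCK acts on them. LCK binds the tails of CD4 and CD8. Medullary thymic epithelial cells present tissue antigens to these cells and touch them closely, and AIRE lets them transcribe many genes of other tissues at low level.

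The 4 libraries held 61102704 to 65907745 counts, with a count for 18608 to 19475 genes. The targeted gene did not separate the groups in the direction of its labels. Counts of *Sirt6* were 622 and 755 in WT, and 882 and 835 under the *Sirt6* cKO label (log2 fold change 0.37 ± 0.32 SE, adjusted p = 0.80 by edgeR's quasi-likelihood test), and a count over the whole gene does not show which exons were read. The groups are therefore named by their labels. Markers of mTECs were high in all 4 libraries. *Epcam*, which encodes the surface protein used in the sort, lay between 797.9 and 1201 TPM (a level scaled to gene length and to the total of the library), *Aire* between 395.0 and 754.3 TPM, and *Enpep*, which encodes the Ly51 antigen of cortical epithelium, between 8.18 and 10.96 TPM. The most abundant genes of the cortical list were not low, with *Tbata* between 1103 and 1247 TPM and *Ctsl* between 385.6 and 555.1 TPM, so *Enpep* does not stand for that list. *Ptprc*, which encodes the CD45 antigen that the sort selected against, was nevertheless read at 144.9 and 105.6 TPM in WT, against 176.8 and 129.4 TPM in the *Sirt6* cKO-labelled libraries.

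The T cell genes were abundant in each library. On the TPM scale, averaged over the 4 libraries, the order from high to low was *Lck* (291.4), *Cd4* (161.4), *Cd8b1* (141.2), *Cd3e* (92.35), *Cd8a* (76.82), *Cd3d* (55.80), *Cd3g* (49.75), *Ptcra* (20.74), *Rag1* (8.90) and *Rag2* (4.68). *Lck* stood at the 97.7th percentile of all genes by mean TPM and *Rag2* at the 47.7th. Neighbours in this order were not separated throughout. *Lck* exceeded *Cd4*, and *Cd4* exceeded *Cd8b1*, in TPM in each of the 4 libraries, but *Cd3e* was below *Cd8a* in WT 1 and in the library labelled *Sirt6* cKO 2 and above it in the other two. *Rag1* was below *Rag2* in WT 1 and above it in the other libraries. Summed over the 10 genes, the level was 1187 and 871.9 TPM in WT, against 963.0 and 590.9 TPM in the *Sirt6* cKO-labelled libraries. The library labelled *Sirt6* cKO 1 thus lay between the WT libraries and only the library labelled *Sirt6* cKO 2 lay below both. The group means were 1029 ± 223 and 777 ± 263 TPM (SD, n = 2 each), a ratio of 0.755. An exact permutation test of 2 libraries against 2 cannot give a two-sided p below 0.333, so no test is given for single values. Which cells held this RNA was not tested. In bulk RNA, the number of such cells and the RNA per cell cannot be told apart.

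**Figure D1:**
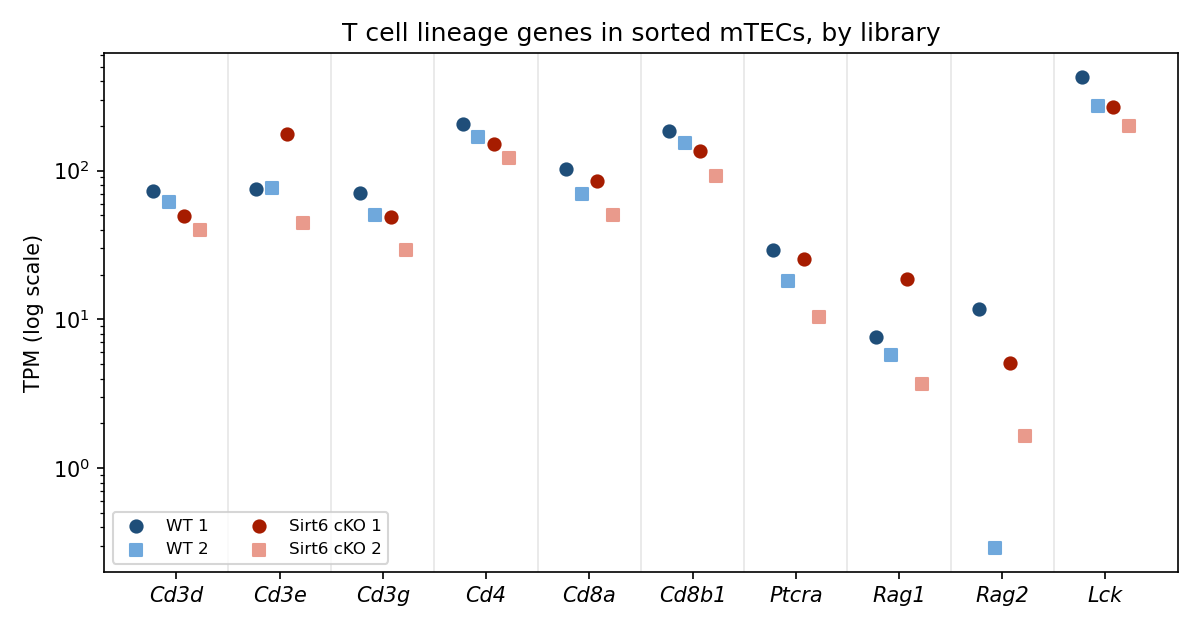
Level of each of the 10 T cell lineage genes in each library, in TPM on a log axis, with 1 point for each library. *Lck* is the highest in each library, *Rag2* is at 0.289 TPM in WT 2, and *Cd3e* and *Rag1* are highest in the library labelled *Sirt6* cKO 1.

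None of the 10 genes passed edgeR's quasi-likelihood test for a difference between the groups, which does not show that their levels were equal. At an adjusted p of 0.05 the count was 0 of 10, against 0.00539% of all genes tested, and the smallest adjusted p was 0.631. At an unadjusted p of 0.05, 0 of 10 were lower in the *Sirt6* cKO-labelled libraries, against 3.32% of all genes, and 0 were higher, against 5.27% (8.58% in either direction). DESeq2 also called 0 at either threshold. The log2 fold change was negative for 8 of the 10, against 50.4% of all genes, with a median of -0.50 over the 10 and -0.00 over all genes tested. Both *Sirt6* cKO-labelled libraries lay below both WT libraries for 4 genes (*Cd3d*, *Cd3g*, *Cd4* and *Cd8b1*) in CPM (counts scaled to the normalized library size, not to gene length), against 20.3% of all genes, and above both for 0 genes, against 21.6%. The 10 genes belong to 1 cell lineage and were read in the same libraries, so these counts are not 10 separate observations.

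**Figure D2:**
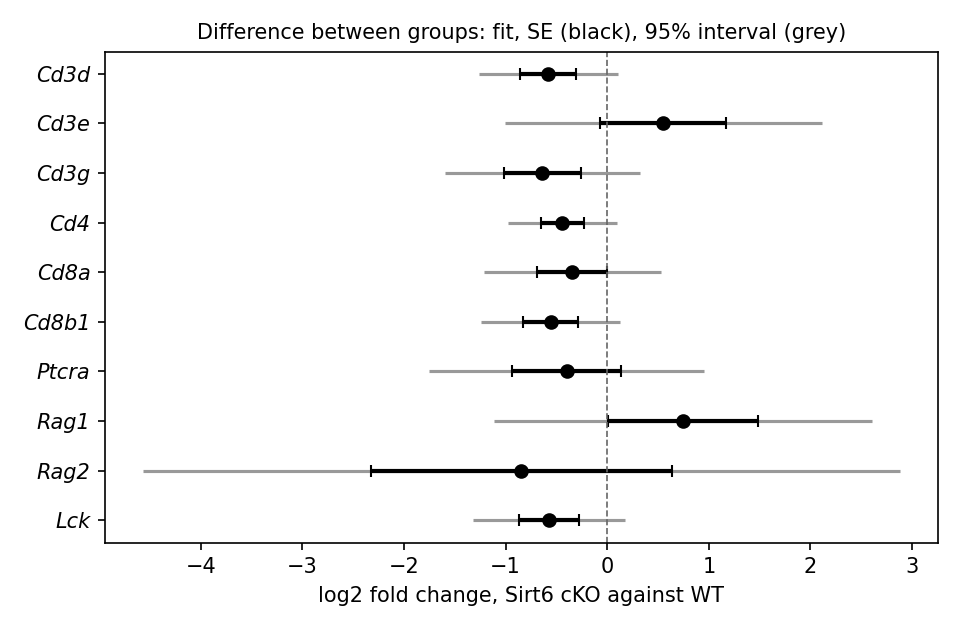
Log2 fold change of each T cell lineage gene, libraries labelled *Sirt6* cKO against WT, with the 95% interval from edgeR's quasi-likelihood fit. Each of the 10 intervals includes 0, and that of *Rag2*, from -4.57 to 2.88, is the widest.

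The CD3 chains are encoded side by side on chromosome 9 (GENCODE M21, the mm10 build). *Cd3d* lies at chr9:44981786-44987339 on the plus strand, *Cd3g* at chr9:44969572-44980431 on the minus strand and *Cd3e* at chr9:44998740-45009627 on the minus strand. The start sites of *Cd3d* and *Cd3g* face away from each other 1355 bases apart, and that of *Cd3e* is 27841 bases from that of *Cd3d*. *Rag1* and *Rag2* are likewise neighbours, at chr2:101638282-101649501 on the minus strand and chr2:101624718-101632529 on the plus strand, with start sites 24783 bases apart. The 250 bases before the RefSeq start of these 5 genes are shown because the values below divide each of these neighbouring sets. For *Cd3e*, *Rag1* and *Rag2* that start differs from the GENCODE one, and the *Cd3e* sequence ends inside the GENCODE gene. The sequences are from RefSeq (GRCm38.p6), 5′ to 3′ on the strand of the gene, at chr9:44981536-44981785 for *Cd3d*, chr9:44980432-44980681 for *Cd3g*, chr9:45009612-45009861 for *Cd3e*, chr2:101649533-101649782 for *Rag1* and chr2:101624462-101624711 for *Rag2*. Capitals mark matches, on either strand, to TGTGGT (the core bound by RUNX factors), AGATAA (bound by GATA factors), CTTTGA (bound by TCF and LEF factors), CAGGTG (bound by E proteins) and AGGAAG (bound by ETS factors).
Cd3d: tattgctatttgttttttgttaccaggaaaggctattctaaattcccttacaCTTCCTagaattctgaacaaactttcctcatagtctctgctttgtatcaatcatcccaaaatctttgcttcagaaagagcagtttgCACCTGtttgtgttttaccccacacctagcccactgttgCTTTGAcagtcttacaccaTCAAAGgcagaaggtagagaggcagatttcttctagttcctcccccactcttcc
Cd3g: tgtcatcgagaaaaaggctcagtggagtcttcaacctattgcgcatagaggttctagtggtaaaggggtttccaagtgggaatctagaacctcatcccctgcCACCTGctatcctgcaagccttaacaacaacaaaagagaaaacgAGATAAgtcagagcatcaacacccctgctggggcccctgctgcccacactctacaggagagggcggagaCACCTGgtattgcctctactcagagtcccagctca
Cd3e: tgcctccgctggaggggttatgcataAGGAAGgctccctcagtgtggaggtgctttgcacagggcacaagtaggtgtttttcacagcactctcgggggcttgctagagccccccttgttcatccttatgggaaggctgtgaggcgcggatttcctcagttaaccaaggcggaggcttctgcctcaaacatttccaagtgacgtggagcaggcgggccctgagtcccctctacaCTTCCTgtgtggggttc
Rag1: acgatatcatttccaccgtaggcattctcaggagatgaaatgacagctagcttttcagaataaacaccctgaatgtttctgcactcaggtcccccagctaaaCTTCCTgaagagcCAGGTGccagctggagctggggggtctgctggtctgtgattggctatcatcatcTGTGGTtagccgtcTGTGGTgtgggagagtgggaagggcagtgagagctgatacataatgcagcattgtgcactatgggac
Rag2: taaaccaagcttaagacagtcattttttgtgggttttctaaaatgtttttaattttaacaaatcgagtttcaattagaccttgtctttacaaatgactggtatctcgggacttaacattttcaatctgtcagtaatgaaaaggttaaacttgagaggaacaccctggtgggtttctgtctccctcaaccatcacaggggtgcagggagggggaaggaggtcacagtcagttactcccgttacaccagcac

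Among the 250 bases before the start of 32851 genes in the RefSeq promoter table, TGTGGT was present in 14.0%, AGATAA in 9.99%, CTTTGA in 13.8%, CAGGTG in 17.2% and AGGAAG in 29.5%. TATAAA, present in 12.4%, was found in none of the 5 sequences. The *Cd3d* sequence held 2 matches to CTTTGA, 1 to CAGGTG and 1 to AGGAAG. That of *Cd3g* held 1 match to AGATAA and 2 to CAGGTG, and that of *Cd3e* held 2 matches to AGGAAG and none to the other motifs. The *Rag1* sequence held 2 matches to TGTGGT, 1 to CAGGTG and 1 to AGGAAG, and the *Rag2* sequence held none of the 6 motifs. A match describes the letters alone.

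*Cd3d*, the δ chain, was read at 73.0 and 61.1 TPM in WT, against 49.4 and 39.7 TPM in the *Sirt6* cKO-labelled libraries. *Cd3g*, the γ chain, was read at 71.2 and 50.2 TPM in WT, against 48.5 and 29.2 TPM in the *Sirt6* cKO-labelled libraries. For both genes the groups did not overlap. For *Cd3g* the gap between the lower WT library and the higher library labelled *Sirt6* cKO was smaller than the gap between the WT libraries. For *Cd3d* those gaps were nearly equal in TPM. The log2 fold changes were -0.58 ± 0.27 (SE, adjusted p = 0.631 by edgeR) for *Cd3d* and -0.64 ± 0.38 (adjusted p = 0.704) for *Cd3g*, with 95% intervals of -1.27 to 0.10 and -1.60 to 0.32. *Cd3e*, the ε chain, was read at 74.6 and 75.9 TPM in WT, against 174.7 and 44.3 TPM in the *Sirt6* cKO-labelled libraries. Here the WT libraries were alike and those labelled *Sirt6* cKO lay on either side of them, the first 3.97-fold above the second in CPM. The log2 fold change of 0.55 ± 0.62 (adjusted p = 0.862) was positive through the library labelled *Sirt6* cKO 1 and was -0.76 without it. Exons of *Cd3e* overlap those of *Gm48719* on the opposite strand over 135 bases. The strand setting of the counting is not given in the sources used here, so reads of that stretch cannot be assigned to a strand. The genes next to the cluster were looked at after these values were seen. *Ube4a*, which encodes a ubiquitin ligase, had 2942 and 3166 counts in WT, against 5629 and 3653 counts in the *Sirt6* cKO-labelled libraries, so that it too was highest in the library labelled *Sirt6* cKO 1. *Mpzl2*, an adhesion gene of epithelia, had 7974, 7960, 8849 and 8471 counts in the same order, and *Mpzl3* had 251, 48, 420 and 273.

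Among the coreceptors, *Cd4* was read at 205.7 and 167.2 TPM in WT, against 151.6 and 121.3 TPM in the *Sirt6* cKO-labelled libraries. *Cd8b1*, the β chain of CD8, was read at 183.4 and 153.7 TPM in WT, against 135.9 and 91.8 TPM in the *Sirt6* cKO-labelled libraries. For both genes each library labelled *Sirt6* cKO was below each WT library. *Cd4* lies at chr6:124864692-124888221 on the minus strand, and *Cd8b1* and *Cd8a* lie side by side on the plus strand of the same chromosome, at chr6:71322788-71337494 and chr6:71373427-71379173. *Cd8a*, the α chain, was read at 102.3 and 69.8 TPM in WT, against 85.0 and 50.2 TPM in the *Sirt6* cKO-labelled libraries, and its groups overlapped. The log2 fold changes were -0.44 ± 0.21 (SE, adjusted p = 0.639 by edgeR) for *Cd4*, -0.56 ± 0.27 (adjusted p = 0.641) for *Cd8b1* and -0.34 ± 0.35 (adjusted p = 0.841) for *Cd8a*, whose value was -0.04 without WT 1 and -0.02 without the library labelled *Sirt6* cKO 2. The 95% interval for *Cd4*, from -0.98 to 0.09, was the narrowest of the 10. Of the 50-base words in the transcripts of *Cd8b1*, 6.00% occur in another gene's transcripts, so a small share of its reads could be placed elsewhere.

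*Ptcra*, which encodes pre-Tα, was read at 29.2 and 18.0 TPM in WT, against 25.3 and 10.4 TPM in the *Sirt6* cKO-labelled libraries. Replicate 1 was the higher library in each group and the groups overlapped (log2 fold change -0.40 ± 0.54 SE, adjusted p = 0.890 by edgeR). The sign for *Ptcra* rested on the library labelled *Sirt6* cKO 2, without which the log2 fold change was 0.10. *Ptcra* lies at chr17:46755663-46763712 and *Lck* at chr4:129548344-129573641, both on the minus strand. The lymphoid kinase *Lck* was the highest of the 10, at 428 and 270 TPM in WT, against 269 and 199 TPM in the *Sirt6* cKO-labelled libraries. WT 1 stood apart, while WT 2 and the library labelled *Sirt6* cKO 1 differed so little that their order in CPM, 260.1 and 266.2, was the reverse of that in TPM. The log2 fold change of *Lck* was -0.57 ± 0.30 (SE, 95% interval -1.32 to 0.17, adjusted p = 0.653 by edgeR), and -0.20 without WT 1.

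The recombinase genes had the largest standard errors of the 10. *Rag1* was read at 7.62 and 5.72 TPM in WT, against 18.6 and 3.69 TPM in the *Sirt6* cKO-labelled libraries, so that the highest and the lowest library carried the same label. Its log2 fold change was 0.75 ± 0.74 (SE, adjusted p = 0.834 by edgeR), and -0.85 without the library labelled *Sirt6* cKO 1. *Rag2* was read at 11.7 and 0.289 TPM in WT, against 5.06 and 1.64 TPM in the *Sirt6* cKO-labelled libraries. In counts these were 1200 and 28, and 476 and 164. The 28 counts of WT 2 have a 95% Poisson interval of 18.6 to 40.5, which covers counting error only. In CPM the WT libraries differed 41.7-fold for *Rag2*, against 1.01-fold for *Cd3e*, and the *Sirt6* cKO-labelled libraries differed 3.08-fold for *Rag2* and 5.05-fold for *Rag1*. The log2 fold change of *Rag2* was -0.85 ± 1.48 (adjusted p = 0.921). It was 3.53 without WT 1, where WT 2 was the one WT library left. Exons of *B230118H07Rik* overlap those of *Rag2* over 208 bases on the opposite strand and those of *Rag1* over 80 bases on the same strand. That gene had 1329 and 1226 counts in WT, against 773 and 888 counts in the *Sirt6* cKO-labelled libraries, an order unlike that of either RAG gene. *Traf6* and *Prr5l*, genes near the RAG genes, were looked at after these values were seen. *Traf6*, a signalling gene, had 3023 and 5563 counts in WT, against 9712 and 5682 counts in the *Sirt6* cKO-labelled libraries. *Prr5l* had 1406 and 1954 counts in WT, against 1542 and 1209 counts in the *Sirt6* cKO-labelled libraries. *Traf6* was thus highest in the library labelled *Sirt6* cKO 1, and *Prr5l* in WT 2.

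Within a library, most of the 10 genes kept close to a common ratio. *Cd4* was 1.12, 1.09, 1.11 and 1.32 times *Cd8b1* in TPM in WT 1, WT 2 and the *Sirt6* cKO-labelled libraries 1 and 2, in that order. *Cd3d* was 1.02, 1.22, 1.02 and 1.36 times *Cd3g* in TPM, and *Ptcra* was 0.285, 0.259, 0.298 and 0.207 times *Cd8a*. The groups overlapped in each of these 3 ratios. They did not overlap in the ratios of *Lck* and *Cd3d* to *Ptprc*, or of *Lck* to *Epcam*, genes outside the 10. The rest of the 10 were not set against *Ptprc* or *Epcam*, and the share of all genes with such a gap was not counted. *Ptprc* and *Epcam* themselves had log2 fold changes of 0.27 ± 0.24 and 0.48 ± 0.14 (SE), which lowers ratios to them in the *Sirt6* cKO-labelled libraries. *Lck* was 2.953 and 2.556 times *Ptprc* in TPM in WT, against 1.522 and 1.535 in the *Sirt6* cKO-labelled libraries. *Cd3d* was 0.5035 and 0.5789 times *Ptprc*, against 0.2792 and 0.3070, and *Lck* was 0.5364 and 0.3234 times *Epcam*, against 0.2538 and 0.1655. The ratio of *Cd3e* to *Cd3d* in TPM was 1.02, 1.24 and 1.11 in WT 1, WT 2 and the library labelled *Sirt6* cKO 2, and 3.54 in the library labelled *Sirt6* cKO 1. In that library *Cd3e* made up 18.1% of the summed TPM of the 10 genes, against 6.29% to 8.70% in the others, while *Cd8a* made up at most 8.83% in any of the 4. The ratio of *Rag1* to *Rag2* in TPM was 0.651 and 19.8 in WT, against 3.67 and 2.25 in the *Sirt6* cKO-labelled libraries.

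**Figure D3:**
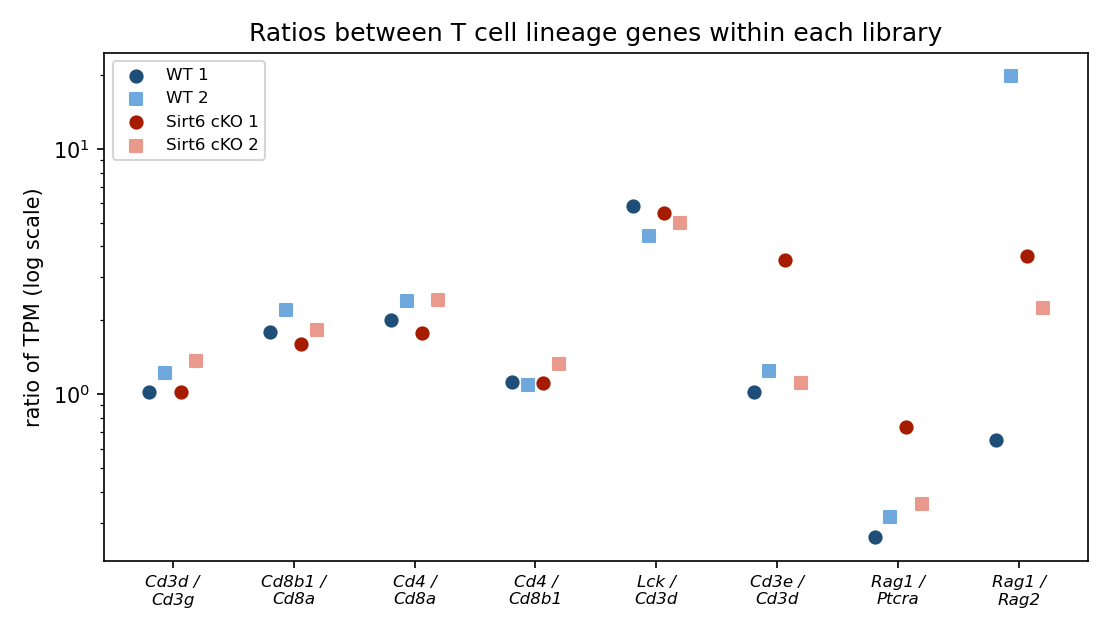
Ratios of TPM between pairs of T cell lineage genes in each library, on a log axis. The ratio of *Cd3e* to *Cd3d* stands apart in the library labelled *Sirt6* cKO 1, and the ratio of *Rag1* to *Rag2* runs from 0.651 to 19.8 between the WT libraries.

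The same division was seen when each gene was centred on its own mean log2 CPM. *Cd3d*, *Cd3g*, *Cd4*, *Cd8a*, *Cd8b1*, *Ptcra* and *Lck*, a set of 7 picked after their values were seen, lay 0.39 to 0.63 above their means in WT 1, -0.12 to 0.14 from them in WT 2, -0.13 to 0.40 from them in the library labelled *Sirt6* cKO 1 and -0.89 to -0.39 from them in the library labelled *Sirt6* cKO 2. *Cd3e* and *Rag1* were 1.11 and 1.33 above their means in the library labelled *Sirt6* cKO 1. *Rag2* was 2.33 above its mean in WT 1 and -2.95 from it in WT 2. Summed TPM of the 7 was 1093 and 790.0 in WT, against 764.7 and 541.3 in the *Sirt6* cKO-labelled libraries, a ratio of 0.694 against 0.755 for all 10. The choice of the 7 leaves out the genes with the largest spread, and the ratio is given as a description.

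**Figure D4:**
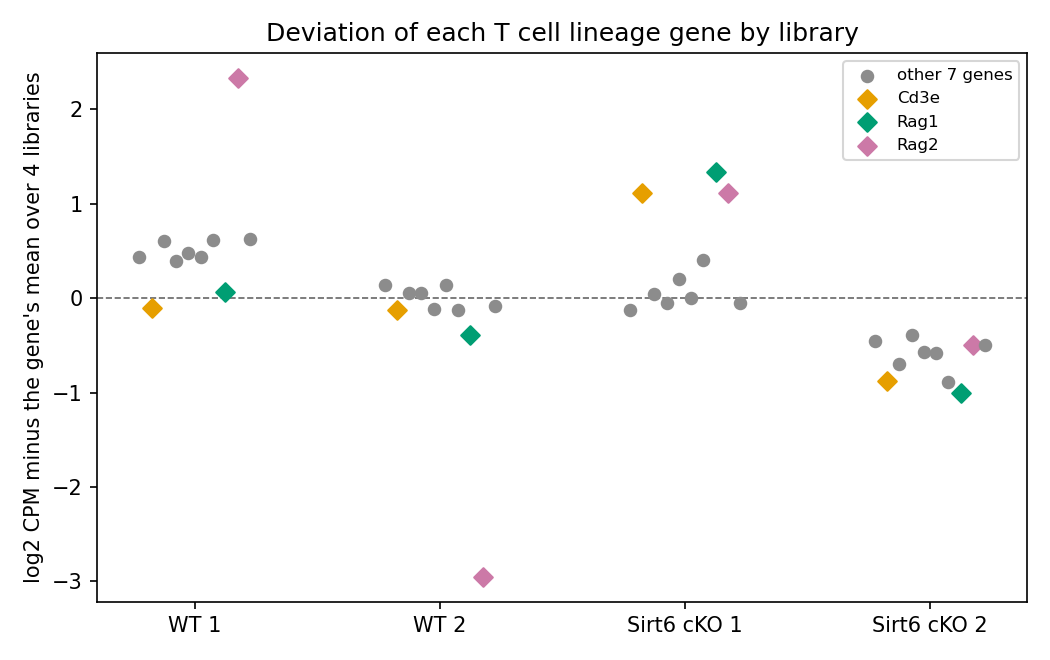
Log2 CPM of each T cell lineage gene minus its mean over the 4 libraries, with the points of a library offset to show each gene. The grey points of 7 genes stay within 0.89 of their means, while *Rag2* spans 2.33 to -2.95 and *Cd3e* and *Rag1* stand high in the library labelled *Sirt6* cKO 1.

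The spread within a group had a pattern of its own. Replicate 1 was above replicate 2 in both groups for 10 of the 10 genes in CPM, against 24.6% of all genes tested. WT 1 was the highest library for 8 of the 10 and the library labelled *Sirt6* cKO 2 the lowest for 9. This order of the extremes was not particular to the 10 genes. WT 1 also had the highest and the library labelled *Sirt6* cKO 2 the lowest median centred log2 CPM over the lists of T cell receptor signalling, thymocyte differentiation, innate-like T and NK cells, blood cells, B cells (0.35 and -0.48) and cortical epithelium (0.16 and -0.26). Libraries with the same number are not known to share a litter or a day. The other genes whose centred log2 CPM lay closest to the mean profile of the 10 were found among 16018 genes with a mean CPM of at least 1. These were *Klhl38*, *Gap43*, *Ccnb2*, *Tk1* and *Zfpm1*, at a root mean square distance of 0.0197 to 0.0689 over the 4 libraries, and 21 genes lay within 0.1. *Ccnb2*, a mitotic cyclin, and *Tk1*, the thymidine kinase of dividing cells, were among the 5. The mean profile was drawn by *Rag2* in WT 1 and WT 2 (2.33 and -2.95). In the library labelled *Sirt6* cKO 1 it was drawn by *Rag1*, *Rag2* and *Cd3e* (1.33, 1.12 and 1.11). The medians of the 10 were 0.46, -0.10, 0.12 and -0.57 in WT 1, WT 2 and the *Sirt6* cKO-labelled libraries 1 and 2. In WT 2 each of the 5 genes, from *Tk1* at -0.39 to *Ccnb2* at -0.27, lay outside the range of the 7 genes. With 4 libraries, such a match is a weak description.

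Other genes of T cell pathways were read from lists named by role. Their counts stand against 3.32% lower, 5.27% higher and 50.4% with a negative log2 fold change among all genes tested. Which cells of the sort held this RNA was not tested. Of 26 genes of T cell receptor signalling, 2 were lower in the *Sirt6* cKO-labelled libraries at an unadjusted p of 0.05 and 0 were higher, and 21 had a negative log2 fold change (median -0.30). Those 2 were *Cd2*, an adhesion receptor of T cells, at 252.8 and 219.4 TPM in WT, against 154.3 and 164.3 TPM in the *Sirt6* cKO-labelled libraries (log2 fold change -0.56 ± 0.20 SE, adjusted p = 0.55 by edgeR), and *Ubash3a*, a negative regulator of receptor signalling, at 30.5 and 27.4 against 19.8 and 14.6 TPM (-0.74 ± 0.29, adjusted p = 0.567). The adaptor *Lat* was read at 345.0 and 256.5 TPM in WT, against 283.6 and 188.4 TPM in the *Sirt6* cKO-labelled libraries, in the same order of libraries as *Cd8a* and *Ptcra*. *Cd247*, the ζ chain of the receptor complex, was read at 121.4, 71.7, 86.9 and 81.7 TPM and the adaptor *Lcp2* at 116.7, 87.2, 91.7 and 87.0 TPM in the same order of libraries, and for both the groups overlapped.

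Of 27 genes of thymocyte differentiation, 0 were lower and 0 higher at an unadjusted p of 0.05 by edgeR, and 17 had a negative log2 fold change (median -0.17). *Tcf7*, a transcription factor of early T cell commitment, was read at 607.6 and 463.2 TPM in WT, against 574.0 and 362.2 TPM in the *Sirt6* cKO-labelled libraries. *Ets1* was read at 371.0 and 233.3 against 178.9 and 223.7 TPM, and *Hes1*, a Notch target, at 433.3 and 458.1 against 185.7 and 380.8 TPM. *Id3* was nearly level, at 462.1 and 504.0 against 463.0 and 446.8 TPM. For *Tcf7*, as for *Lat*, replicate 1 was the higher library in each group, whereas *Ets1* and *Hes1* were lowest in the library labelled *Sirt6* cKO 1.

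Genes of mature and regulatory T cells differed in sign. Of 19, 5 were lower and 1 higher in the *Sirt6* cKO-labelled libraries at an unadjusted p of 0.05, 12 had a negative log2 fold change (median -0.19), against 3.32%, 5.27% and 50.4% of all genes, and none passed an adjusted p of 0.05. *Icos*, a costimulatory receptor, was read at 44.6 and 40.7 TPM in WT, against 14.6 and 15.4 TPM in the *Sirt6* cKO-labelled libraries (log2 fold change -1.50 ± 0.24 SE, adjusted p = 0.541 by edgeR). *Ltb*, which encodes lymphotoxin β, was read at 112.4 and 106.9 against 56.6 and 46.3 TPM (-1.08 ± 0.25, adjusted p = 0.541). *Gimap3* and *Ms4a4b*, genes of T cells nearing exit from the thymus, had log2 fold changes of -0.86 ± 0.26 and -0.79 ± 0.24, both with an adjusted p of 0.541. The fifth, *Cd40lg*, was read at 14.9 and 16.8 against 7.37 and 7.41 TPM (-1.09 ± 0.38, adjusted p = 0.548). The 1 higher gene, *Il2ra*, which encodes a chain of the interleukin-2 receptor, was read at 52.8 and 50.1 against 113.9 and 71.1 TPM (0.86 ± 0.27, adjusted p = 0.541). In each of these 6 genes the groups did not overlap, but they were picked by their p, so this adds nothing to it. Of all 19 genes, both *Sirt6* cKO-labelled libraries lay below both WT libraries in CPM for 7, against 20.3% of all genes. They lay above both for 4, against 21.6%. *Ccr7*, the chemokine receptor of cells entering the medulla, was read at 513.0 and 542.9 TPM in WT, against 627.4 and 737.6 TPM in the *Sirt6* cKO-labelled libraries (0.38 ± 0.16, adjusted p = 0.597). *Cd27* was read at 189.9, 43.9, 149.1 and 56.9 TPM and *Cd69* at 124.0, 76.3, 94.5 and 104.9 TPM in the order of WT 1, WT 2 and the *Sirt6* cKO-labelled libraries 1 and 2. *Cd27* thus followed the replicate numbers and not the labels.

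**Figure D5:**
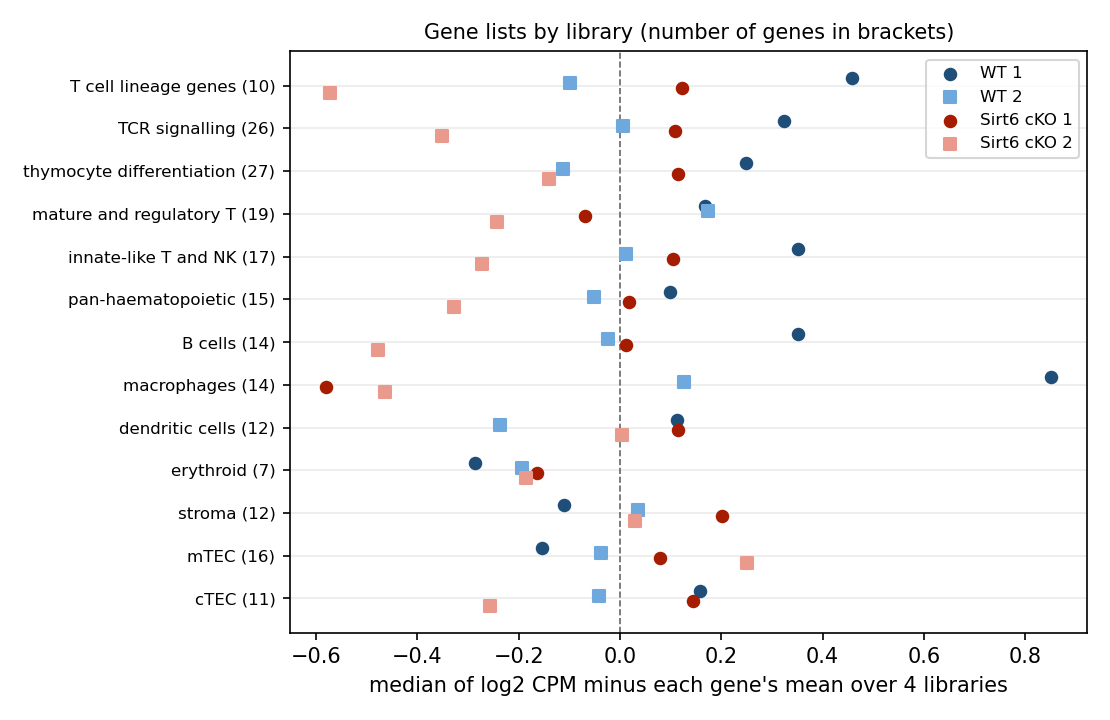
Median over each gene list of the log2 CPM minus each gene's mean over 4 libraries, with 1 point for each library and the number of tested genes in brackets. For the 10 T cell lineage genes WT 1 is highest and the library labelled *Sirt6* cKO 2 lowest, as they are for 6 other lists (TCR signalling, thymocyte differentiation, innate-like T and NK, pan-haematopoietic, B cells and cTEC). For macrophage genes and for mature and regulatory T genes both *Sirt6* cKO-labelled libraries lie below both WT libraries. They lie above both for mTEC genes and, by a small margin, for erythroid genes.

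Markers of other cells were measured beside the T cell genes, since a sort can carry more than one cell type, and their counts likewise stand against 3.32% lower and 5.27% higher among all genes tested. Of 14 macrophage genes, 8 were lower and 1 higher in the *Sirt6* cKO-labelled libraries at an unadjusted p of 0.05 by edgeR, with a median log2 fold change of -1.07. Their summed level was 11600 and 6850 TPM in WT, against 4270 and 4596 TPM in the *Sirt6* cKO-labelled libraries. *Lyz2*, the lysozyme of macrophages and neutrophils, was read at 9532 and 5941 TPM in WT against 3664 and 3955 TPM (log2 fold change -1.02 ± 0.25 SE, adjusted p = 0.541), and *C1qa*, a complement gene of macrophages, at 817.5 and 325.4 against 211.5 and 204.7 TPM (-1.46 ± 0.45, adjusted p = 0.541). *Axl*, a receptor tyrosine kinase and the 1 gene that was higher, was read at 16.1 and 15.9 against 87.1 and 89.2 TPM (2.43 ± 0.19, adjusted p = 0.131). For *Lyz2* and *C1qa* WT 1 was the highest library and the *Sirt6* cKO-labelled libraries lay close together. Of 14 B cell genes, 1 was lower and 0 higher at an unadjusted p of 0.05 (median log2 fold change -0.30), and the groups overlapped in their summed level, which was 1122 and 828.0 TPM in WT, against 1051 and 870.3 TPM in the *Sirt6* cKO-labelled libraries. *Pax5*, a defining factor of B cells, was listed at 0, 0.298, 0.343 and 0 TPM. Of 15 genes shared by blood cells, 1 was lower and 0 higher (median -0.14), at a summed 4594 and 4375 against 4347 and 3677 TPM. Of 17 genes of innate-like T and NK cells, 2 were lower and 1 higher (median -0.20). Of 12 dendritic cell genes, 0 were lower and 1 higher (median -0.00). Of 7 erythroid genes, 1 was lower and 0 higher (median -0.68), and of 12 stromal genes, 1 was lower and 0 higher (median -0.02).

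Of 16 mTEC genes, 1 was lower and 5 were higher at an unadjusted p of 0.05 (median log2 fold change 0.32). Of 11 genes of cortical epithelium, 0 were lower and 2 higher (median -0.11). These counts stand against 3.32% lower and 5.27% higher among all genes tested. *Epcam* and *Aire* had log2 fold changes of 0.48 ± 0.14 and 0.65 ± 0.18 (SE, adjusted p = 0.541 for each by edgeR). *Ccl21a*, a chemokine gene and the 1 mTEC gene that was lower, was read at 1258 and 3154 TPM in WT against 346.1 and 497.1 TPM (-2.37 ± 0.46, adjusted p = 0.541). *Krt18*, a keratin gene, was read at 2676 and 3578 against 2186 and 2504 TPM (-0.40 ± 0.18, adjusted p = 0.616). The summed level of the mTEC genes overlapped between the groups, at 26090 and 29650 TPM in WT, against 27170 and 27600 TPM in the *Sirt6* cKO-labelled libraries. The part of macrophage and mTEC RNA in the lower T cell values was not tested.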

How the data were processed

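RNA of sorted mTECs was sequenced in 2 WT and 2 *Sirt6* cKO libraries, grouped by their labels. Per the study's methods, the authors used Trim Galore for trimming, HISAT2 (2.1.0) for alignment to mm10 and StringTie (1.3.3) for quantification. The annotation and strand setting are not given in the sources used here. The authors deposited a matrix of raw counts per gene and, for each library, TPM values. Each TPM file ends with 1 line that names no gene and holds 100% of the gene sum, so it was left out. For each of the 10 genes the ratio of counts to TPM, each library scaled alike, differed at most 1.006-fold between libraries, so both carry the same measurement.

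Library totals were 64144539 and 61102704 (WT) and 62488880 and 65907745 (*Sirt6* cKO), with TMM factors of 0.966 to 1.04. Genes kept by filterByExpr (counts of at least 10, total of at least 15) were tested with edgeR 4.0.16 (quasi-likelihood, TMM, R 4.3.3), with Benjamini-Hochberg adjustment over 18547 genes. The SE is the log2 fold change divided by the root of its F statistic. The common biological coefficient of variation was 0.557. Alternatives were DESeq2 1.42.0, upper-quartile and library-size scaling, no filter, a TPM filter of 0.1, limma 3.58.1 on log2(TPM + 1) and log2(TPM + 0.1), a replicate block, and each library left out. The code was tested on simulated data with 200 changed genes. Positions are from GENCODE M21 and promoters from RefSeq (GRCm38.p6), which held 8 of the 10 genes.

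The 10 genes, the lists and the tests were chosen with earlier results of these data known. Named genes were all 10, the 4 highest by mean TPM and up to 4 with an unadjusted p under 0.05 in each T cell list, the 2 highest of other lists where a result turned on them, *Ptprc*, *Epcam*, *Enpep*, *Aire* and *Sirt6*, and the 5 genes most alike in profile. The values of 1 gene that this rule names are not reported here. *Pax5*, *Axl*, *Ccl21a*, *Cd40lg*, *Il2ra*, the genes beside the CD3 and RAG genes and overlapping genes were named after their values were seen.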

Additional observations from a re-analysis of the deposited data

How the results depend on the processing

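Of the 10 genes, 0 were lower in the *Sirt6* cKO-labelled libraries at an unadjusted p of 0.05. The number was 1 with upper-quartile scaling (*Cd4*), 1 with library-size scaling (*Cd4*) and 1 with the replicate block (*Lck*), and 0 to 1 with each library left out (*Lck* without WT 2, *Cd8b1* without the library labelled *Sirt6* cKO 1). The number higher was 0, and 0 to 2 with each library left out (*Rag2* without WT 1, *Cd3e* and *Rag1* without the library labelled *Sirt6* cKO 2). A group left with 1 library is assumed to vary like the other. Over all genes, 615 were lower and 977 higher at an unadjusted p of 0.05, with 314 to 827 lower and 421 to 1100 higher when a library was left out. At an adjusted p of 0.05, 1 gene passed by edgeR and 357 by DESeq2, and 0 of the 10 under any setting.

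The log2 fold change of *Rag2* turned to 0.48 by limma on log2(TPM + 0.1), 0.59 with the replicate block and 3.53 without WT 1. Without the library labelled *Sirt6* cKO 1, *Cd3e* turned to -0.76 and *Rag1* to -0.85, and without the library labelled *Sirt6* cKO 2 *Ptcra* turned to 0.10. With each library left out, *Cd3e* ranged from -0.76 to 1.21, *Rag1* from -0.85 to 1.47, *Ptcra* from -1.18 to 0.10 and *Rag2* from -1.87 to 3.53. For these reversals the cause was not tested. The other 6 genes kept a negative sign under every setting run but not their size. With each library left out, *Cd3d* ranged from -0.75 to -0.44, *Cd3g* from -1.05 to -0.33, *Cd4* from -0.62 to -0.29, *Cd8a* from -0.78 to -0.02, *Cd8b1* from -0.87 to -0.31 and *Lck* from -0.88 to -0.20. The smallest were without WT 1 (*Cd4*, *Lck*) or without the library labelled *Sirt6* cKO 2 (the others), and the largest without WT 2 (*Lck*) or without the library labelled *Sirt6* cKO 1 (the others). The median log2 fold change of the 10 was -0.50 and ranged from -0.83 without the library labelled *Sirt6* cKO 1 to -0.12 without WT 1. Of calls at an unadjusted p of 0.05, 61.4% were higher, against 48.4% with upper-quartile scaling, 46.2% with library-size scaling and 48.8% and 47.4% by limma. Same-numbered libraries are not known to share more than a number. The correlation of their deviations from the group means was -0.0544 over all genes tested, and the replicate block changed no other call of the 10. Each of the 10 genes had at least 164 counts in each library, except *Rag2* in WT 2 with 28.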
